A study of Mus musculus with 8 samples.

Results

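Macrophages that present antigen also carry surface proteins that raise or dampen the response of the T cell they meet. The 7 genes described here encode proteins of this kind: Cd80, Cd86 and Icosl of the B7 family, Cd274 and Pdcd1lg2 for the PD-1 ligands PD-L1 and PD-L2, and Cd40 and Cd83. They were taken by symbol from a list of ligands chosen by the level of Cd86, which was high in ABCG1KO against WT in earlier results of the same data. All 7 were found among the 24421 gene symbols counted in every library, and all 7 passed the filter on low counts. The values of ABCG1KO against WT are therefore given as a description, and so are those of ABCG1KO against LysM-DKO, which use the same ABCG1KO libraries. The comparison of LysM-DKO with WT played no part in the choice and is tested.

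RNA came from primary macrophages of mice on a normal diet and was sequenced as 8 libraries. The WT group held 3 libraries of wild-type macrophages, the LysM-DKO group held 3, and the ABCG1KO group held 2. The series' design text speaks of epsin knockout macrophages (Epsin-DKO) where the labels write LysM-DKO, and the same group was taken to be meant. Epsins, encoded by Epn1 and Epn2, are adaptor proteins of clathrin-mediated endocytosis, and Abcg1 encodes a membrane transporter of the ABC family that exports cholesterol. The alleles and promoters behind both genotype names are not given in the sources used here. Strain, sex, age, tissue of origin and any pooling of animals are likewise not given in the sources used here. Nothing in the labels says that the libraries of a group came from separate mice, so p-values measure the spread between these libraries, part of which may be technical. LysM-DKO 1 differed from LysM-DKO 2 and 3 in sex-linked transcripts, as given below, so that group did not consist of repeats of a single mouse.

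CD80 and CD86 bind CD28 on T cells, which supports activation, and CTLA-4, which restrains it. ICOSL, the product of Icosl, binds the costimulatory receptor ICOS, whereas PD-L1 and PD-L2 bind the inhibitory receptor PD-1. CD40 is itself a receptor of the TNF receptor family: CD40 ligand on helper T cells engages it, and it signals through TRAF proteins to NF-kB. CD83 is a surface protein of activated antigen-presenting cells that stabilises CD86 and MHC class II at the cell surface. Macrophages are known to raise many of these genes in response to microbial products and interferon-gamma.

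The libraries held 29567615 to 41888516 counts in genes, and a count of 0 allows up to 3 counts, or 0.0708 to 0.0941 CPM (counts per 1000000 counts in genes, with library sizes scaled by TMM factors). This limit covers counting error only. Abcg1 fell to 17.4% of its WT level in ABCG1KO (adjusted p = 0.00414, edgeR quasi-likelihood test). In the libraries labelled LysM-DKO, Epn1 was at 154.5 to 182.7 CPM against 191.2 to 229.7 CPM in WT and did not pass the test (log2 difference -0.30, adjusted p = 0.430, edgeR), and Epn2 was at 5.67 to 13.2 against 4.97 to 8.86 CPM (adjusted p = 0.852, edgeR). Gene-level counts include exons outside any deleted part, so they check the LysM-DKO label only in part. The ABCG1KO libraries stood apart in other ways: 10.2% to 13.8% of their reads lay outside genes against 4.26% to 6.07% in the other libraries. Reads at several loci made up 6.74% to 6.93% against 2.65% to 3.01%, and reads in several genes 0.614% to 0.665% against 0.873% to 0.980%. Gapdh, a housekeeping gene of glycolysis, was at 2.05 and 4.99 CPM in ABCG1KO against 731 to 1705 CPM in the other libraries. Of the 50-base stretches of Gapdh transcripts, 25.1% also occur in transcripts of other genes, and the part of this in its level was not tested. Xist, the RNA that coats the inactive X chromosome, had 0 counts in both ABCG1KO libraries and 2 in LysM-DKO 1, and 2697 to 10883 counts in the other 5 libraries. The Y-linked gene Ddx3y had 3022, 3924 and 3369 counts in ABCG1KO 1, ABCG1KO 2 and LysM-DKO 1 and at most 2 elsewhere. Sex, library handling and genotype cannot be told apart in a comparison of ABCG1KO with WT.

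Ranked by CPM per kilobase of annotated exon, Cd274 and Cd83 were the most abundant of the 7 transcripts in WT, with means of 31.8 and 28.0 CPM per kb (n = 3). Their WT ranges, 24.1 to 47.0 and 22.1 to 35.2, overlapped. Cd80 (2.24 CPM per kb), Cd86 (2.01), Cd40 (1.00), Icosl (0.372) and Pdcd1lg2 (0.198) followed, and each overlapped its neighbour in that order. The gap between Cd83 and Cd80 was the only place in the WT order where the ranges of neighbours did not overlap. In LysM-DKO the order changed only between genes whose ranges overlapped, with Cd83 (36.8 CPM per kb) before Cd274 (28.8) and Cd86 (3.81) before Cd80 (2.53). In ABCG1KO, Cd86 ranked first at 31.8 CPM per kb (22.6 and 41.1 in the 2 libraries), ahead of Cd83 (16.7), Cd274 (15.9), Cd40 (7.79), Icosl (5.64), Cd80 (2.67) and Pdcd1lg2 (0.513). Neighbours in that order overlapped except at the steps from Cd86 to Cd83, from Cd274 to Cd40 and from Cd80 to Pdcd1lg2.

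**Figure D1:**
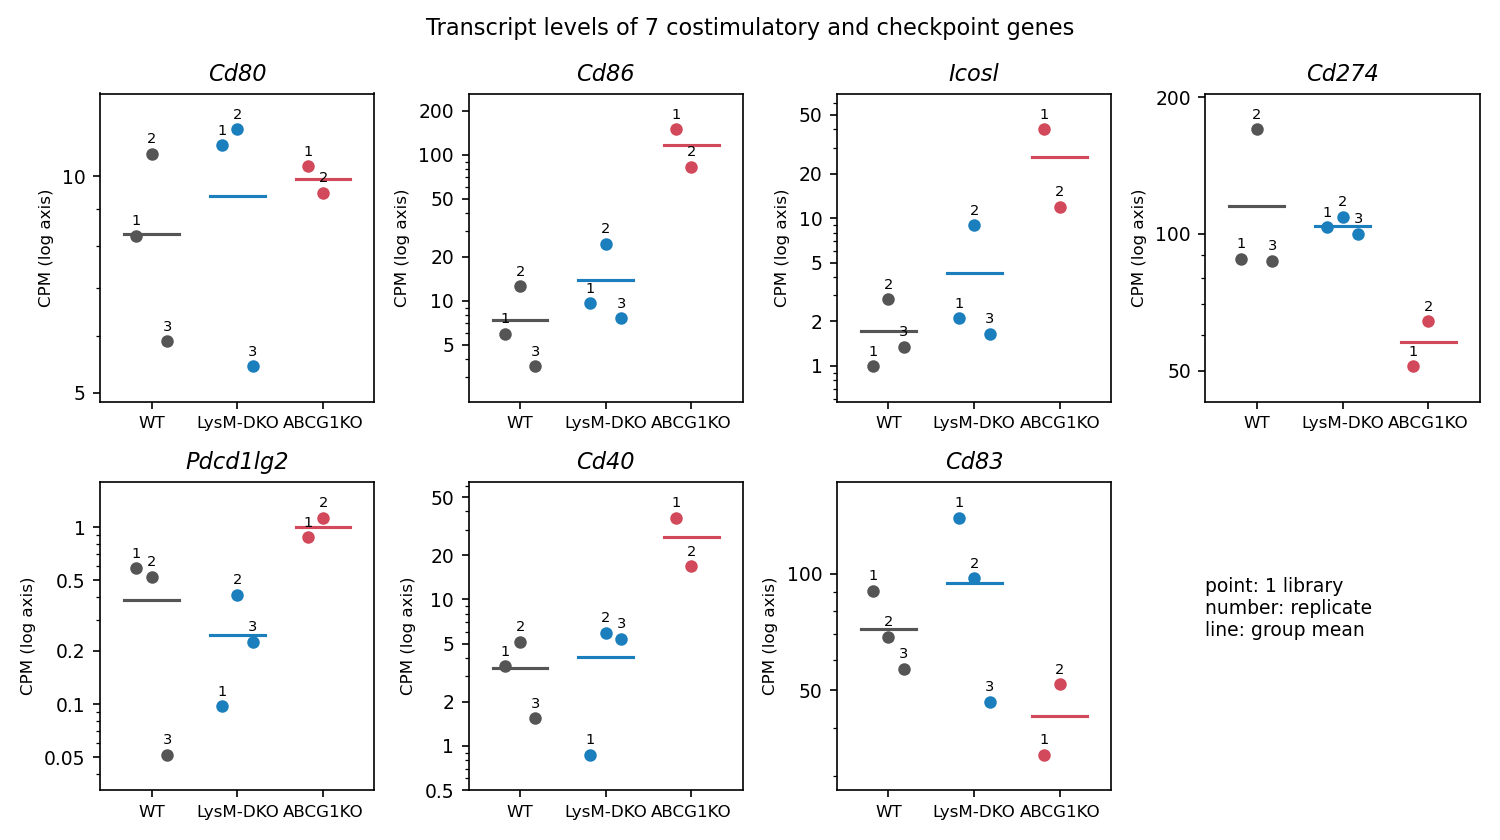
Levels of the 7 transcripts in CPM (log axis, a separate scale for each gene) in the 3 WT, 3 LysM-DKO and 2 ABCG1KO libraries. Each point is a library with its replicate number, and the line is the group mean. Cd86, Icosl, Cd40 and Pdcd1lg2 lie higher in both ABCG1KO libraries than in every other library, Cd274 lies lower, and Cd80 overlaps throughout.

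Cd86 encodes a B7 protein, and its level in ABCG1KO is the value the choice of genes rested on. WT 1, 2 and 3 held 5.95, 12.6 and 3.57 CPM, LysM-DKO 1, 2 and 3 held 9.67, 24.6 and 7.62 CPM, and ABCG1KO 1 and 2 held 150.3 and 82.8 CPM. Both ABCG1KO libraries lay above all 6 others, while WT and LysM-DKO overlapped. The group means were 7.36 ± 4.66 CPM in WT (SD, n = 3), 14.0 ± 9.26 CPM in LysM-DKO (n = 3) and 117 ± 47.7 CPM in ABCG1KO (n = 2). As a description, ABCG1KO was 15.8-fold above WT (log2 difference 3.98, SE 0.667, 95% interval 2.44 to 5.53) and 8.34-fold above LysM-DKO (3.06, SE 0.644). In bulk RNA, a change in how many cells of a type are present and a change in RNA per cell cannot be told apart. LysM-DKO against WT did not pass the test, with a log2 difference of 0.92 (SE 0.582, 95% interval -0.43 to 2.27, adjusted p = 0.555, edgeR). Without LysM-DKO 2, that difference was 0.22. Cd86 lies on the minus strand of chromosome 16 (GRCm38, GENCODE M21, 36603869 to 36666081).

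Cd80, which encodes the other ligand of CD28 and CTLA-4, showed no such separation. The WT libraries held 8.27, 10.7 and 5.90 CPM, the LysM-DKO libraries 11.0, 11.6 and 5.45 CPM, and the ABCG1KO libraries 10.3 and 9.48 CPM. Both ABCG1KO values lay inside the ranges of WT and of LysM-DKO. The log2 difference of ABCG1KO against WT was 0.25 (SE 0.373, 95% interval -0.60 to 1.11), and that of LysM-DKO against WT was 0.18 (SE 0.335, 95% interval -0.59 to 0.94, adjusted p = 0.858, edgeR). The gene is on the plus strand of chromosome 16 (38455561 to 38496335), 1789.5 kb from Cd86. No annotated transcript of another gene shared a 50-base stretch with Cd80 or Cd86. Shorter matches were not checked. The ratio of Cd86 to Cd80, both per kilobase, was 0.612 to 1.18 in WT, 0.885 to 2.14 in LysM-DKO, and 14.7 and 8.83 in ABCG1KO 1 and 2. Both ABCG1KO ratios lay above all the others.

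Icosl encodes the B7-family ligand of ICOS. Its levels were 0.997, 2.82 and 1.35 CPM in WT, 2.11, 8.95 and 1.65 CPM in LysM-DKO, and 40.1 and 12.0 CPM in ABCG1KO. ABCG1KO 1 and 2 were again above every other library, but LysM-DKO 2 was nearer to ABCG1KO 2 than to the rest of its own group. The description of ABCG1KO against WT is a log2 difference of 3.92 (SE 0.874, 95% interval 1.90 to 5.94), or 15.1-fold, and of ABCG1KO against LysM-DKO 2.62 (SE 0.833). For LysM-DKO against WT the difference was 1.30 (SE 0.772, 95% interval -0.49 to 3.08, adjusted p = 0.536, edgeR), and it was 0.12 without LysM-DKO 2. Icosl lies on chromosome 10 (78069302 to 78083913, plus strand). The ratio of Icosl to Cd86 per kilobase stayed between 0.114 and 0.299 in all 8 libraries, over which Cd86 itself ranged from 3.57 to 150.3 CPM.

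Cd274 and Pdcd1lg2 encode the ligands of PD-1 and lie next to each other on the plus strand of chromosome 19, Cd274 at 29367455 to 29388095 and Pdcd1lg2 at 29410919 to 29471161, 22.8 kb apart. Their upstream sequences are shown because these neighbours had opposite signs in ABCG1KO. The 250 bases before each start site are printed 5′ to 3′ from RefSeq (GRCm38.p6), at chr19:29367188-29367437 for Cd274 and chr19:29410669-29410918 for Pdcd1lg2, with matches to the NF-kB consensus in capitals.
Cd274: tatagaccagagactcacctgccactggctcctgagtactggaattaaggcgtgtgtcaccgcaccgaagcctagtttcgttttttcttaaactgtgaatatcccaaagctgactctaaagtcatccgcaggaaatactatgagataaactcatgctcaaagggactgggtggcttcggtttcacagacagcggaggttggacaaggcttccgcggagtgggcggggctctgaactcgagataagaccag
Pdcd1lg2: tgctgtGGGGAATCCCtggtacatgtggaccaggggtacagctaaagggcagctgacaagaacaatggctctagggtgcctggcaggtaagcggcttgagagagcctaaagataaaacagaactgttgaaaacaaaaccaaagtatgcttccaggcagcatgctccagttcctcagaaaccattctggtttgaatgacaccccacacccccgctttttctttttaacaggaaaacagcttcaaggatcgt
RefSeq windows of 300 bases (250 before and 50 after a start site) were at hand for 4 of the 7 genes, Cd80, Icosl, Cd274 and Pdcd1lg2. Both strands were searched for the NF-kB consensus, the GAS element TTCNNNGAA, the interferon-stimulated response element (GAAA, any 2 bases, then GAAA) and the ETS core GAGGAA. The Pdcd1lg2 window held an NF-kB match, found on both strands with its first base 244 bases before the start site, and an ETS core 82 bases before it. The other 3 windows held none of these letters. Of all 32851 promoter windows of that length, 4.51% held the NF-kB consensus, 8.3% the GAS element, 3.44% the interferon-stimulated response element and 28.3% the ETS core. A match describes the letters only.

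Cd274, the gene of PD-L1, was the only one of the 7 to be lower in both ABCG1KO libraries than in every other library. Its levels were 88.2, 170.1 and 87.3 CPM in WT, 103.6, 109.0 and 100.1 CPM in LysM-DKO, and 51.2 and 64.3 CPM in ABCG1KO. The log2 difference of ABCG1KO against WT was -0.996 (SE 0.296, 95% interval -1.67 to -0.32), which is 50.2% of the WT level, and it was -0.85 (SE 0.295) against LysM-DKO. LysM-DKO against WT gave -0.14 (SE 0.257, 95% interval -0.73 to 0.44, adjusted p = 0.843, edgeR), and without WT 2, the highest library, the sign turned, to 0.22. Of the 50-base stretches of Cd274 transcripts, 12.4% also occur in annotated transcripts of other genes, and an antisense gene, AC119228.1, overlaps its exons. Since the strand setting of the counting is not given in the sources used here, the Cd274 counts are uncertain to that extent.

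Pdcd1lg2 was near the limit of detection. It had 20, 19 and 2 counts in WT, 4, 17 and 9 in LysM-DKO, and 28 and 48 in ABCG1KO, or 0.0518 to 0.586, 0.0969 to 0.414, and 0.878 and 1.13 CPM. Both ABCG1KO libraries were above the other 6 with an interval that includes 0, a log2 difference of 1.37 against WT (SE 0.968, 95% interval -0.84 to 3.59). LysM-DKO was not distinguishable from WT at this depth (-0.65, SE 0.908, 95% interval -2.73 to 1.43, adjusted p = 0.799, edgeR). The antisense gene A930007I19Rik overlaps its exons. Per kilobase, Cd274 exceeded Pdcd1lg2 by 81.4-fold to 913-fold in WT, by 142-fold to 579-fold in LysM-DKO, and by 31.6-fold and 30.8-fold in ABCG1KO.

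Cd40 encodes the receptor that T cells engage with CD40 ligand. Its CPM values were 3.52, 5.16 and 1.55 in WT, 0.872, 5.95 and 5.40 in LysM-DKO, and 36.2 and 16.8 in ABCG1KO. ABCG1KO was above every other library, whereas LysM-DKO held the lowest library of all and a pair of libraries just above the highest WT value. ABCG1KO was 7.78-fold above WT (log2 difference 2.96, SE 0.789, 95% interval 1.14 to 4.78) and 6.51-fold above LysM-DKO (SE 0.782 on the log2 scale). LysM-DKO against WT gave 0.26 (SE 0.706, 95% interval -1.38 to 1.89, adjusted p = 0.906, edgeR), a sign that turned without WT 3 (-0.09) or without LysM-DKO 2 (-0.13). Cd40 is on the plus strand of chromosome 2 (165055627 to 165072948).

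Cd83 was abundant and had the opposite sign in ABCG1KO from Cd86, whose protein CD83 is known to stabilise. Its levels were 90.4, 68.8 and 56.9 CPM in WT, 139.9, 97.5 and 46.8 CPM in LysM-DKO, and 34.1 and 51.8 CPM in ABCG1KO. The ABCG1KO values lay below WT but overlapped LysM-DKO 3. Against WT the log2 difference of ABCG1KO was -0.74 (SE 0.432, 95% interval -1.74 to 0.25), or 59.7% of the WT level, and against LysM-DKO it was -1.14 (SE 0.439). LysM-DKO against WT gave 0.40 (SE 0.378, 95% interval -0.48 to 1.27, adjusted p = 0.689, edgeR) and -0.02 without LysM-DKO 1. Cd83 lies on chromosome 13 (43784775 to 43803132, plus strand).

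**Figure D2:**
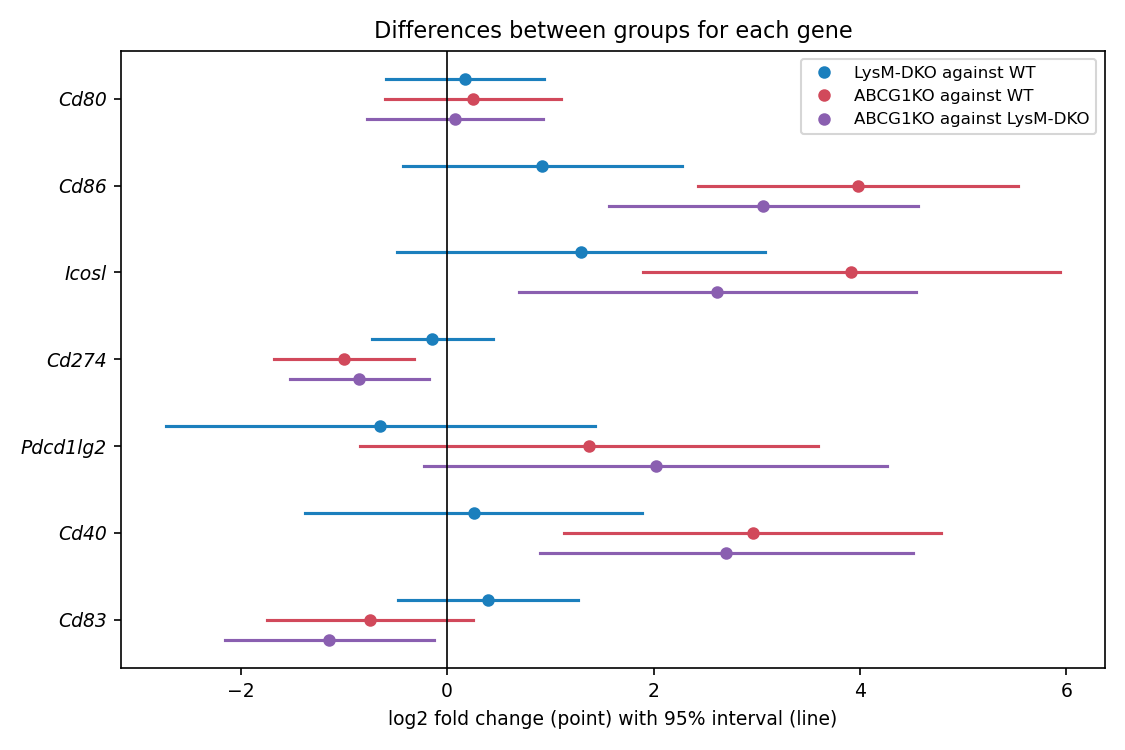
Log2 differences of the 7 genes in the 3 comparisons (x axis), as points with 95% intervals from the quasi-likelihood fit, not adjusted over genes. The LysM-DKO intervals all include 0. Those of ABCG1KO against WT lie above 0 for Cd86, Icosl and Cd40, below 0 for Cd274, and include 0 for Cd80, Pdcd1lg2 and Cd83.

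Of the 7 genes, 0 passed the test in LysM-DKO against WT at an adjusted p under 0.05 (edgeR), where 0.0362% of the 13821 genes tested did. DESeq2 also called 0 of the 7, and 0 of the 7 had an unadjusted p under 0.05 in edgeR, against 11.7% of all genes. All 7 genes had overlapping WT and LysM-DKO libraries, where 21.0% of all genes did not overlap. The median log2 difference of the 7 was 0.26 and that of all genes 0.02. Without LysM-DKO 1, the WT and LysM-DKO groups held only libraries with Xist transcripts, while the fit still included the ABCG1KO libraries. The differences of LysM-DKO against WT were then 1.12 for Cd86, 1.61 for Icosl, 0.72 for Cd40, 0.02 for Cd80, -0.02 for Cd83, -0.15 for Cd274 and -0.29 for Pdcd1lg2, and 0 of 7 passed the test.

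In ABCG1KO against WT, Cd86, Icosl and Cd40 were past the threshold, 3 of 7 beside 16.0% of all genes. The groups did not overlap for 6 of 7, with 4 higher and 2 lower, beside 48.2% of all genes (23.9% higher and 24.2% lower). The choice of the genes used this contrast, and nothing is read from these counts. The 7 genes had log2 differences between -0.996 and 3.98 with a median of 1.37, against a median of 0.01 over all genes. Icosl fell short of the threshold in 4 of 16 alternative analyses (without WT 1, WT 3 or ABCG1KO 1, and with a replicate block) and Cd40 in 9 of 16, among them each WT and each ABCG1KO library left out. Without ABCG1KO 1, the higher of both libraries for these 3 genes, the differences were 3.49 for Cd86, 2.79 for Icosl and 2.30 for Cd40, and Cd86 alone was past the threshold. In ABCG1KO against LysM-DKO, 1 of 7 was past the threshold, Cd86, beside 13.4% of all genes. It fell short of the threshold without LysM-DKO 1 (log2 difference 2.88), LysM-DKO 3 (2.77) or ABCG1KO 1 (2.59), and against LysM-DKO 1 alone. Against LysM-DKO 1 alone, the LysM-DKO library that like ABCG1KO held Y-linked transcripts, the ABCG1KO differences were 3.59 for Cd86, 3.62 for Icosl, 4.92 for Cd40, 3.33 for Pdcd1lg2, -0.16 for Cd80, -0.84 for Cd274 and -1.70 for Cd83, an alternative chosen after seeing the data.

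Summed over the 7 genes, the level was 156.6 to 270.7 CPM in WT, 167.2 to 267.2 CPM in LysM-DKO, and 323.2 and 238.4 CPM in ABCG1KO, and ABCG1KO 2 lay inside the range of the other groups. Cd86 made up 1.97% to 4.16% of the summed CPM per kb in WT, 2.96% to 8.22% in LysM-DKO, and 45.1% and 31.8% in ABCG1KO. Cd274 made up 37.5% to 57.0% in WT, 31.99%, 36.8% and 53.7% in LysM-DKO 1, 2 and 3, and 15.5% and 25.0% in ABCG1KO. Per kilobase, the costimulatory Cd86 stood at 0.0405 to 0.0731 times the inhibitory Cd274 in WT, at 0.0753 to 0.223 times in LysM-DKO, and at 2.91 and 1.27 times in ABCG1KO.

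**Figure D3:**
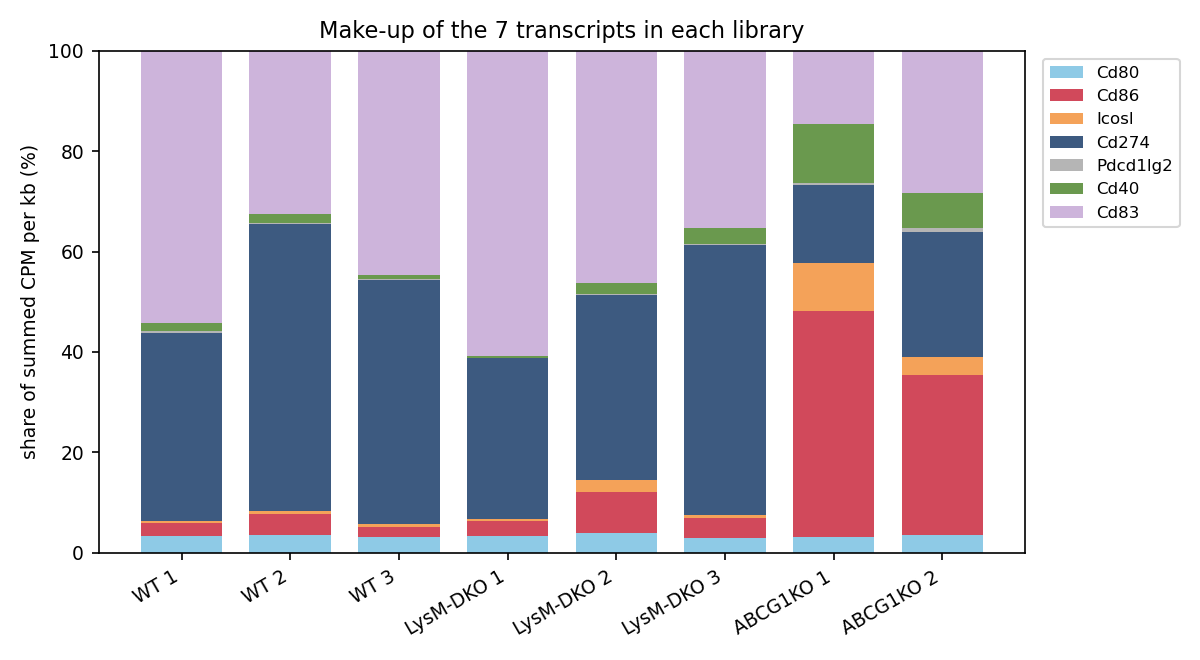
Share of each gene in the summed CPM per kilobase of the 7 transcripts (y axis, percent) in each of the 8 libraries (x axis). Cd274 and Cd83 fill most of each WT and LysM-DKO bar, and Cd86 takes 45.1% and 31.8% of the ABCG1KO bars.

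Within groups, WT 2 was the highest WT library for 5 of the 7 genes and WT 3 the lowest for 6, and LysM-DKO 2 was the highest of its group for 6. Cd83 was highest in WT 1 and LysM-DKO 1. ABCG1KO 1 was above ABCG1KO 2 for Cd80, Cd86, Icosl and Cd40 and below it for Cd274, Pdcd1lg2 and Cd83. B cells also express Cd80, Cd86, Icosl and Cd40. Their 10 counted markers summed to 122.8, 160.3 and 118.9 CPM in WT 1, 2 and 3, to 135.4, 116.8 and 98.7 CPM in LysM-DKO 1, 2 and 3, and to 52.96 and 57.97 CPM in ABCG1KO 1 and 2. Most of these sums came from Cd22. Over the other 9, a split chosen after seeing the values, the summed level was 47.5 CPM in WT 2 against 5.85 and 12.5 CPM in WT 3 and 1, 8.41 CPM in LysM-DKO 2 against 2.33 and 5.32 CPM in LysM-DKO 1 and 3, and 25.2 against 7.76 CPM in ABCG1KO 1 and 2. With Cd22, the order of the libraries in LysM-DKO and ABCG1KO was a different one. The part of B cell transcripts in the levels of the 7 genes was not tested.

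By the root mean square difference of centred log2 CPM over the 8 libraries, the closest pair among the 7 was Cd86 with Icosl (0.451) and the farthest Cd86 with Cd83 (2.12). Cd274 and Cd83 (0.538) and Cd80 and Cd83 (0.581) were the next closest pairs. Outside the set, the tested genes nearest to Cd86 were P2ry12 (0.284), which encodes a purinergic receptor, Lepr (0.438), the leptin receptor, Socs3 (0.505), a feedback inhibitor of cytokine signalling, Marcksl1 (0.522) and Wnt6 (0.527). Lepr was at 0 to 0.0276 CPM in WT, 0 to 0.146 CPM in LysM-DKO, and 0.472 and 0.878 CPM in ABCG1KO, and Wnt6 at 0 to 0.221, 0.0242 to 0.244, and 1.37 and 3.01 CPM. Genes this low outside ABCG1KO entered the comparison through the ABCG1KO libraries, and their distances depend on the prior count. P2ry12 averaged 2.25 CPM in WT, 5.41 CPM in LysM-DKO and 37.5 CPM in ABCG1KO. Lepr was nearest to Icosl too (0.450), followed by Pde2a (0.477). The nearest genes were Adam8 (0.127) and Srr (0.158) for Cd274, Tox2 (0.227) and Bcam (0.351) for Pdcd1lg2, Fam20a (0.312) and Dnmt3l (0.315) for Cd40, Rab3il1 (0.208) and Pdp2 (0.247) for Cd83, and Pitpnc1 (0.184) and Lyn (0.191) for Cd80. Dnmt3l was at 0.0259 to 0.193 CPM in WT, 0.0242 to 0.200 CPM in LysM-DKO, and 0.590 to 1.88 CPM in ABCG1KO, so the limit given for Lepr and Wnt6 holds for it too. All these distances are descriptions over 8 libraries of 3 groups, and genes with small differences are close to many others.

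The T cell receptors of these ligands were looked up in the same libraries. Cd28, the receptor of CD80 and CD86, was at 24.5 to 44.6 CPM in WT, 18.0 to 58.7 CPM in LysM-DKO, and 5.36 and 28.6 CPM in ABCG1KO, and it passed the test in no comparison (adjusted p = 0.937, 0.426 and 0.355, edgeR). The T cell marker Cd3e had 0 to 21 counts per library, and the 8 T cell markers other than Cd4 summed to 0.518 to 4.39 CPM. The part of T cells in the Cd28 level was not tested. Ctla4 had at most 6 counts, Pdcd1 at most 17 and Cd40lg 0 counts in every library. Icos had 5, 2 and 9 counts in WT, 0, 3 and 0 in LysM-DKO, and 39 and 17 in ABCG1KO. Icos passed the filter on low counts only through ABCG1KO, so these counts are given with no test.

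Among other ligands that T cells meet on antigen-presenting cells, 15 of 23 listed genes could be tested. In ABCG1KO against WT, 1 rose and 2 fell beside 16.0% of all genes, with a median log2 difference of -0.13 against 0.01. Icam1, the adhesion ligand of LFA-1, rose by 2.07 (SE 0.392, adjusted p = 0.0124, edgeR), from 26.2 to 53.2 CPM in WT to 200.4 and 124.9 CPM. Cd200, which encodes an inhibitory ligand of the CD200 receptor, fell by 4.47 (SE 0.400, adjusted p = 0.000315, edgeR), from 219.4 to 302.7 CPM to 6.99 and 16.6 CPM. Lgals3, the galectin-3 gene, fell by 2.04 (SE 0.291, adjusted p = 0.00357, edgeR). Of the transcript sequence of Icam1, 13.1% of the 50-base stretches occur in other genes, and its call was lost without ABCG1KO 1 (1.68, adjusted p = 0.0784, edgeR). The remaining 12 did not pass the test, among them Tnfsf9 (0.96), the gene of 4-1BB ligand, Lgals9 (-0.13) and Pvr (0.06), which overlapped WT. Cd276 (-2.06, SE 0.842), Vtcn1 (-3.66, SE 1.78) and Tnfsf14 (2.07, SE 1.43) did not pass either. Their ABCG1KO and WT libraries did not overlap, as held for 48.2% of all genes. Cd276 was at 15.3 to 22.4 CPM in WT and 1.13 and 7.92 CPM in ABCG1KO, and Vtcn1 had at most 19 counts per library. In LysM-DKO against WT, 0 of 15 passed in edgeR (0.0362% of all genes did) or in DESeq2, and 2 had an unadjusted p under 0.05, beside 11.7% of all genes.

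CD40 signals through NF-kB, and 24 genes of that pathway were tested. This list, like the others here, was chosen with earlier results of these data known, so its ABCG1KO values are a description. In ABCG1KO against WT, 10 of 24 rose and 0 fell, beside 7.21% of all genes that rose and 8.83% that fell, with a median log2 difference of 0.62 against 0.01 for all genes. Those with the lowest adjusted p were Nfkbie, an NF-kB inhibitor (1.79, SE 0.182, adjusted p = 0.000591, edgeR), Nfkb2 (1.12, SE 0.123, adjusted p = 0.000921) and Relb (1.57, SE 0.176, adjusted p = 0.00103), which encode the subunits of the noncanonical pathway, and Traf3, which restrains it (1.08, SE 0.138, adjusted p = 0.00206). Relb was at 26.0 to 29.6 CPM in WT, 25.7 to 30.4 CPM in LysM-DKO, and 96.7 and 66.8 CPM in ABCG1KO. Activators and inhibitors of the pathway were both among the genes that rose. For Nfkb2, 14.9% of the 50-base stretches occur in other genes. The count was 7 to 12 under the other analyses, except that 17 of 24 rose without scaling factors, where the median of all genes itself moved to 0.25. In LysM-DKO against WT, 0 of 24 passed in edgeR or in DESeq2, and 2 had an unadjusted p under 0.05, beside 11.7% of all genes.

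Interferon-gamma acts on several of the 7 genes through STAT and IRF factors. Of 25 genes in that list, 5 rose and 0 fell in ABCG1KO against WT, and the median was 0.14 against 0.01. Of all genes 16.0% passed there, 7.21% higher and 8.83% lower. The receptor genes Ifnar1 (1.15, SE 0.162, adjusted p = 0.00344, edgeR), Ifngr1 (1.03, adjusted p = 0.0323) and Il10ra (1.52, adjusted p = 0.0223) rose, and so did Socs3 (3.07, SE 0.603, adjusted p = 0.0155). Without ABCG1KO 1 the count was 1, and without WT 1, WT 2 or WT 3 it was 2 each. In LysM-DKO against WT, 0 of 25 passed in edgeR or in DESeq2, and 1 had an unadjusted p under 0.05, beside 11.7% of all genes. Of 4 tested genes that control how long these ligands stay at the surface, 1 passed in ABCG1KO against WT, beside 16.0% of all genes. It was Cmtm6, whose product protects PD-L1 from degradation, and it rose (1.00, SE 0.173, adjusted p = 0.00818, edgeR), while Cd274 itself was lower there. Against WT, 0 of 4 passed in LysM-DKO, with 1 at an unadjusted p under 0.05, beside 11.7% of all genes. The Cmtm6 call was lost without ABCG1KO 1.

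**Figure D4:**
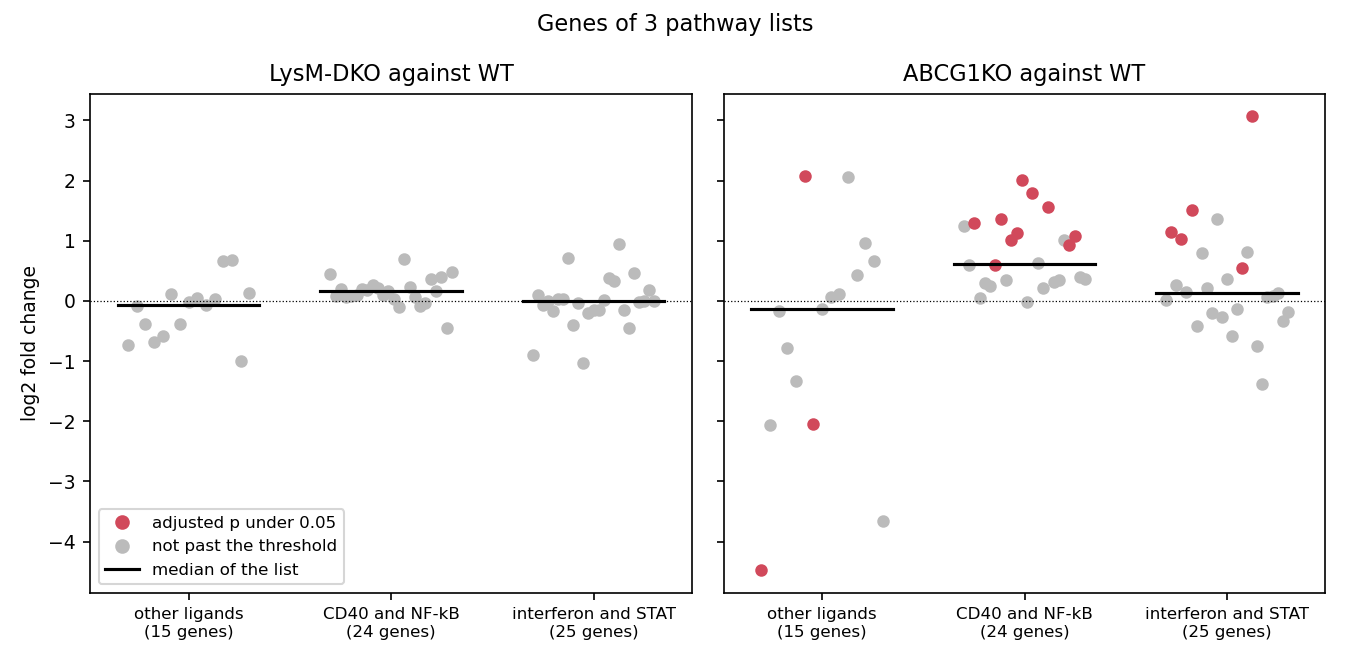
Log2 differences (y axis) of the tested genes of 3 lists, as points, in LysM-DKO against WT and in ABCG1KO against WT. Coloured points passed an adjusted p under 0.05 and the line is the median. For LysM-DKO 0 points are coloured, and for ABCG1KO the CD40 and NF-kB list holds 10, all above 0.

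Macrophage markers were abundant in every library, with 14431 to 27051 CPM over 12 genes and none of them at 0. In ABCG1KO against WT, C1qa (2.20, adjusted p = 0.0087, edgeR), Adgre1 (1.21, adjusted p = 0.0147), Csf1r (1.19, adjusted p = 0.0172) and Cd14 (1.87, adjusted p = 0.0185) rose and Cd68 fell (-1.06, adjusted p = 0.0192), 5 of 12 beside 16.0% of all genes. Without ABCG1KO 1, 1 of the 12 passed, C1qa, and the count over all genes was 853. In LysM-DKO against WT, 0 of 12 passed in edgeR, 3 had an unadjusted p under 0.05 beside 11.7% of all genes, and DESeq2 called 2. Over all genes DESeq2 called far more than edgeR in this comparison, as given below, which bears on each DESeq2 count in this paragraph. Lyz2, which encodes lysozyme M, was at 13004 to 15709 CPM in WT and 6177 to 8105 CPM in LysM-DKO, with no overlap (-1.09, adjusted p = 0.173, edgeR), and C1qa was higher with no overlap (1.29, adjusted p = 0.342, edgeR). Dendritic cells also carry these ligands. Of 10 dendritic cell markers in the fit, Siglech and Ccr7 are set aside for ABCG1KO, as given below. Among the rest, Itgax alone passed in ABCG1KO against WT and fell (-3.17, adjusted p = 0.0102, edgeR), where 16.0% of all genes passed. Zbtb46 (2.59, adjusted p = 0.0694, edgeR) and Cd209a (3.48, adjusted p = 0.104) did not pass but lay above every WT library in both ABCG1KO libraries. Clec9a (-3.22, adjusted p = 0.0853, edgeR) did not pass either and lay below every WT library, at 0.212 to 0.314 CPM against 0.674 to 5.96 CPM. Dpp4 (0.98) also lay above WT without passing, and Fscn1 (0.96), Batf3 (-0.60) and Clec10a (-0.60) overlapped WT. Zbtb46, a transcription factor gene of dendritic cells, was at 0.285 to 1.16 CPM in WT and 5.21 and 2.62 CPM in ABCG1KO, and Cd209a at 0.285 to 1.08 against 5.21 and 9.55 CPM. Siglech had 0 counts in WT, 0 to 3 in LysM-DKO, and 181 and 202 in ABCG1KO. Ccr7 had 2 to 7 counts in WT, 0 in LysM-DKO, and 16 to 45 in ABCG1KO. Both genes passed the filter through ABCG1KO alone, so they get no test of ABCG1KO here. Flt3 and Xcr1 had at most 10 and 9 counts in any library. The markers other than Itgax summed to 47.7 to 130.6 CPM in WT, 44.0 to 132.3 CPM in LysM-DKO, and 75.2 and 207.5 CPM in ABCG1KO, of which Fscn1 made up 28.9 and 175.0 CPM in ABCG1KO 1 and 2. For LysM-DKO against WT, 0 of 10 passed in edgeR, 3 had an unadjusted p under 0.05 beside 11.7% of all genes, and DESeq2 called 2. Itgax was lower there with no overlap (-1.46, adjusted p = 0.354, edgeR). In ABCG1KO against WT, Cd22 was the only one of 9 B cell markers past the threshold, beside 16.0% of all genes, and it fell (-1.52, adjusted p = 0.00774, edgeR). Of 6 T cell and 3 neutrophil markers, 0 passed in edgeR and 0 had an unadjusted p under 0.05. The 9 counted T cell markers summed to 2.17 to 7.07 CPM and the 9 neutrophil markers to 1.39 to 6.24 CPM over the 8 libraries. Between LysM-DKO and WT, 0 of the 9 B cell markers passed in edgeR, 6 had an unadjusted p under 0.05 beside 11.7% of all genes, and DESeq2 called 4, with a median log2 difference of -4.04. The part of other cell types in the levels of the 7 genes was not tested.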

How the data were processed

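RNA of 8 mouse macrophage libraries was compared between WT, LysM-DKO and ABCG1KO. The values are raw read counts per gene symbol, deposited by the authors as htseq-count output, per the file contents. STAR 2.7.9a, TopHat, HTSeq 0.11.2, DESeq2 1.30.1 and limma are named, with the mm10 build, per the submitters' processing notes, with no role or order. The read length, strand setting and annotation are not given in the sources used here. Library sizes and tests leave out the 5 special lines, which held 4.26% to 13.8% of reads outside genes, 2.65% to 6.93% at several loci and 0.614% to 0.980% in several genes.

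Counts were analysed with edgeR 4.0.16 in R 4.3.3. filterByExpr kept 13821 symbols, TMM scaled the library sizes, and all 8 libraries entered a robust quasi-likelihood fit with a term per group (5 residual degrees of freedom). Genes were called at a Benjamini-Hochberg adjusted p under 0.05 over all genes tested. Intervals at 95% come from the fit and are not adjusted. CPM values use the scaled sizes, and CPM per kb uses the exon length of the GENCODE M21 annotation. Within groups, every pair of libraries differed beyond sampling noise (chi-square per degree of freedom 92.7 or more). Depth limits low genes: Pdcd1lg2 rests on 2 to 48 counts per library.

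The 7 genes and all lists were chosen with earlier results of these data known. The genes named are the 7, the targeted genes, the T cell receptors, up to 4 genes per direction of each list called against WT by adjusted p, every called gene of the other ligands, and the nearest profiles (5 for Cd86, 2 for each other gene). Gapdh, Xist, Ddx3y, Cd3e, Lyz2, and the uncalled dendritic cell markers and ligands named were chosen after their values had been seen. The alternatives were other scaling, filters, sample sets, DESeq2 1.42.0, a replicate block, and each library left out.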

Additional observations from a re-analysis of the deposited data

How the results depend on the processing

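All 7 genes kept their direction in ABCG1KO against WT under every alternative that could be fitted, 16 for each gene and 15 for Pdcd1lg2, which at least 10 counts in every library removes. Since Cd86 in this contrast guided the choice, nothing is read from this. Fits with a library left out assume that a lone ABCG1KO library varies like the other groups. The cause of the shifts below was not tested.

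The 5 genes called in LysM-DKO against WT became 3 with at least 10 counts in every library, 8 with only the libraries of both groups, 301 with DESeq2, and 0 to 8 with a library left out. The 2216 genes called in ABCG1KO against WT became 853 (without ABCG1KO 1) to 2090 with a library left out. Without scaling factors 2074 were higher and 856 lower, against 996 and 1220, as the median of all genes moved from 0.01 to 0.25. The 1853 genes called in ABCG1KO against LysM-DKO became 948 with only the libraries of both groups, 2982 with DESeq2, 559 with LysM-DKO 2 and 3 left out together (chosen after seeing the data), and 561 to 1960 with a library left out. Of the 7 genes, 1 to 3 were called in ABCG1KO against WT with a library left out. In ABCG1KO against LysM-DKO the 1 called became 2 with only the libraries of both groups, 5 with DESeq2, 2 with LysM-DKO 2 and 3 left out, and 0 to 2 with a library left out (0 without LysM-DKO 1 or ABCG1KO 1).

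Pairing by number was not clear: deviations of WT and LysM-DKO libraries with the same number correlated at 0.04, 0.43 and -0.01. The 0.43, of WT 2 with LysM-DKO 2, was the highest correlation between libraries of different groups. Reads outside genes were 4.26%, 5.73% and 5.88% in WT 1, 2 and 3 and 4.33%, 5.93% and 6.07% in LysM-DKO 1, 2 and 3. Whether the numbers mark shared handling was not tested. With the replicate block, the genes called were 0, 1456 and 1024 in LysM-DKO against WT, ABCG1KO against WT and ABCG1KO against LysM-DKO. The block brought Cd274 past the threshold in ABCG1KO against WT (-1.05) and took Icosl (3.90) and Cd40 (3.06) below it.

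Signs turned only for differences that had not passed the test. In LysM-DKO against WT, Cd274 was 0.00967 without scaling factors. With a library left out, Cd274 ranged from -0.31 to 0.22 (without WT 2), Cd40 from -0.13 (without LysM-DKO 2) to 0.72, Cd80 from -0.0223 (without LysM-DKO 2) to 0.45, Cd83 from -0.0178 (without LysM-DKO 1) to 0.72, and Epn2 from -0.31 (without LysM-DKO 2) to 0.40. Without WT 3, Cd40 was -0.0926, Cd80 -0.0198 and Epn2 -0.0204. With LysM-DKO 2 and 3 left out together, Cd40 was -1.97 and Epn2 -0.38. In ABCG1KO against LysM-DKO, Cd80 was -0.13 with the block, -0.16 with LysM-DKO 2 and 3 left out together, and -0.20 (without LysM-DKO 3) to 0.28 with a library left out.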
